A study of Homo sapiens with 10 samples.

Results

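The cytosolic heat shock proteins are molecular chaperones, and this account covers their genes with those of 2 groups of partners, the DNAJ co-chaperones and the BAG nucleotide exchange factors, in MIA PaCa-2 cells, an established human line from a ductal adenocarcinoma of the pancreas. Members were taken by symbol: every HSPA, HSPB, HSPH1, HSP90A, DNAJA, DNAJB, DNAJC and BAG gene of the deposited table, without 7 endoplasmic reticulum and mitochondrial chaperone genes (HSPA5, HSPA9, HSPA13, DNAJB9, DNAJB11, DNAJC3 and DNAJC10). This gave 68 of 16734 genes. Poly(A) RNA was measured in 5 libraries made after 24 h in hydroxyprogesterone caproate (HPC, a synthetic progestin) at 10 µM, and in 5 made after the same time in as much of the solvent, dimethyl sulfoxide (DMSO). The groups were compared to see how the drug changes the transcriptome of this line, which stands here as a single model. Each group's libraries are labelled biological replicates with no culture day, and the p-values reflect only how far these libraries vary.

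Proteins of the HSP70 family hold unfolded stretches of other proteins in a cycle driven by ATP. J-domain proteins, encoded by the DNAJ genes, deliver clients and start ATP hydrolysis, while HSP110 and BAG proteins exchange the nucleotide and so release the client. HSP90 acts later, on clients close to their folded state, and small heat shock proteins bind unfolding proteins without ATP. HSPA8, HSP90AB1 and most DNAJ genes are transcribed in unstressed cells. HSPA6, HSPA1A, HSPA1B, DNAJB1, HSPH1 and, more strongly than its partner, HSP90AA1 are classical targets of the heat shock factor HSF1, which binds inverted repeats of the letters GAA.

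Reads recovered from the deposited values summed to between 65851176 and 74477071 per HPC library and between 71602736 and 82218527 per DMSO library. Transcripts encoded by mitochondria took 13.8% to 15.9% of the FPKM in HPC libraries and 21.9% to 23.8% in DMSO libraries. Of the epithelial markers checked, KRT8 averaged 57.7 FPKM in HPC and 51.8 in DMSO, and KRT18 150 in HPC and 114 in DMSO. KRT19 averaged 10.1 FPKM in HPC and 24.0 in DMSO, MUC1 0.0649 in HPC and 0.808 in DMSO, and KRT7 0.0352 in HPC and 0.226 in DMSO. MUC1 rested on 94 to 172 reads per HPC library and 1607 to 2191 per DMSO library. EPCAM and CDH1 were at or near 0 in both groups, so 2 defining epithelial markers were absent, while VIM averaged 333 FPKM in HPC and 695 in DMSO. Of the blood, fibroblast, endothelial and islet markers in the table, PTPRC, COL1A1, DCN, PECAM1, VWF and GCG stayed under 0.1 FPKM in every library. CD68, a lysosomal membrane gene also used as a macrophage marker, averaged 9.77 FPKM in HPC and 2.75 in DMSO, and ACTA2, a smooth muscle and fibroblast marker, 2.697 in HPC and 2.604 in DMSO. What these marker differences contribute to the results was not tested.

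In HPC-treated cells the transcripts of the stress-inducible HSPA6, HSPA1A, HSPA1B, DNAJB1, HSPH1 and HSP90AA1 were more abundant. Those of the constitutive HSPA8 and HSP90AB1 and of the small heat shock protein gene HSPB1, itself a known HSF1 target, were less abundant. BAG3, another HSF1 target, rose by only 0.25 on the log2 scale, and the constitutive HSPA4 rose by 0.16. Neither of these rises passed on every scale tried. Inducible and constitutive members were thus not cleanly divided by direction. HSPA6 was 51.4 times as high in HPC as in DMSO by the ratio of mean FPKM, and DNAJA4, DNAJC25, BAG2 and HSPA1A were more than 2-fold higher. Of the tested members HSPB1, HSPA14, DNAJC5 and DNAJC4 had the largest falls, none of which reached 2-fold on the deposited scale. Of the 68 members, 48 reached at least 1 FPKM in at least 5 libraries and were tested with limma on log2(FPKM + 0.1), with Benjamini-Hochberg adjustment over 9150 genes at 0.05. On this scale changes of low genes come out too small. HSPA6 and DNAJA4 passed the filter only through their HPC libraries. In the test 28 members rose, 17 fell and 3 did not pass, where 42.9% of all tested genes rose, 44.8% fell and 87.7% were called in either direction. Members thus rose in 58.3% and fell in 35.4% of the tested cases. The median log2 fold change was 0.20 over the tested members and -0.01 over all tested genes. In bulk RNA, fewer cells with a transcript and less of it per cell cannot be told apart.

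Changes of at least 1.5-fold were made up of 13 rises and 5 falls among the members, against 16.9% and 20.3% of all tested genes. At least 2-fold, 5 tested members rose and 0 fell on the deposited scale, against 7.54% and 9.88%. These counts depend on the filter. Among the rises, HSPA6 and DNAJA4 passed it only through their HPC libraries. DNAJC22, under 1 FPKM in every library and at -1.71 without the filter, was left out by it. On the non-mitochondrial sum (the total of the nuclear genes) 4 rose and 1, HSPB1 at -1.03, fell by that much, and per merged exon length 6 rose and 1, DNAJC22 at -1.91, fell. With a pseudocount of 1 FPKM 3 rose and 0 fell that far. The share of all tested genes changed at least 2-fold was not taken under these alternatives. Their counts therefore cannot be set against it. The 5 HPC and the 5 DMSO values did not overlap for 44 of the 48 tested members, as was so for 79.6% of all tested genes. The split into rises and falls depends on the scale. When FPKM was rescaled to the non-mitochondrial sum, the median of all tested genes was -0.18. On that scale 19 members rose, 18 fell and 11 did not pass, where 32.3% of all tested genes rose and 54.8% fell, and the members' median was 0.03. All 19 of these rises and 17 of these falls were also called on the deposited scale, and the added fall was BAG4. The 9 rises lost were BAG3, BAG6, DNAJA2, DNAJB6, DNAJB12, DNAJC16, DNAJC21, DNAJC24 and HSPA4, with log2 fold changes of 0.27 or less on the deposited scale.

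**Figure D1:**
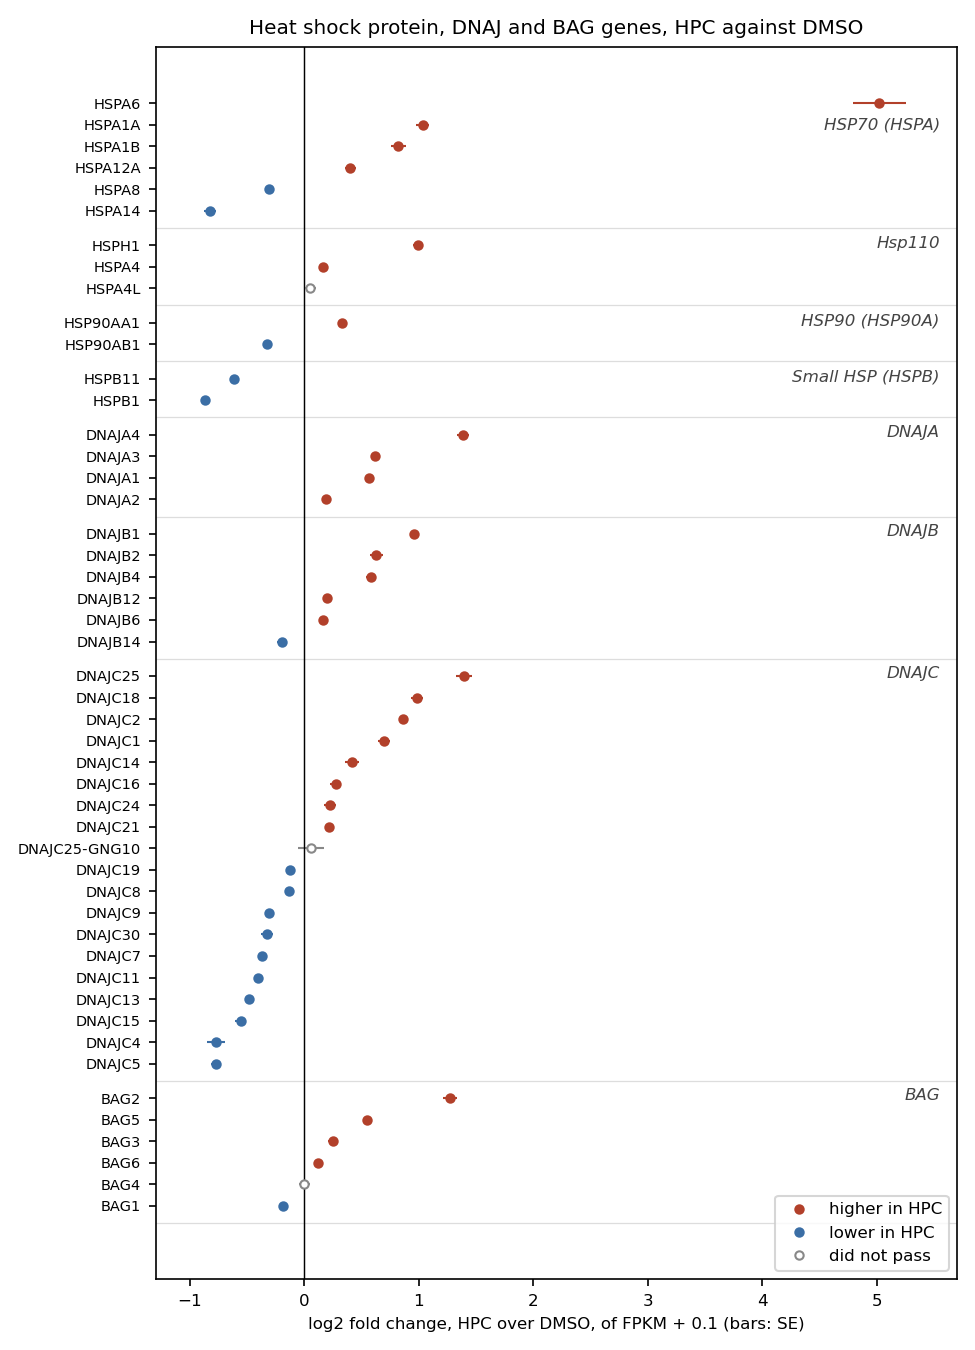
Log2 fold change of log2(FPKM + 0.1), HPC over DMSO, with its standard error, for the 48 tested members grouped by family (n = 5 libraries a group). Red points rose, blue points fell and open grey points did not pass limma's adjusted 0.05. HSPA6 stands apart at 5.02, all 4 DNAJA genes lie right of 0 and both tested HSPB genes lie left of it.

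**Figure D2:**
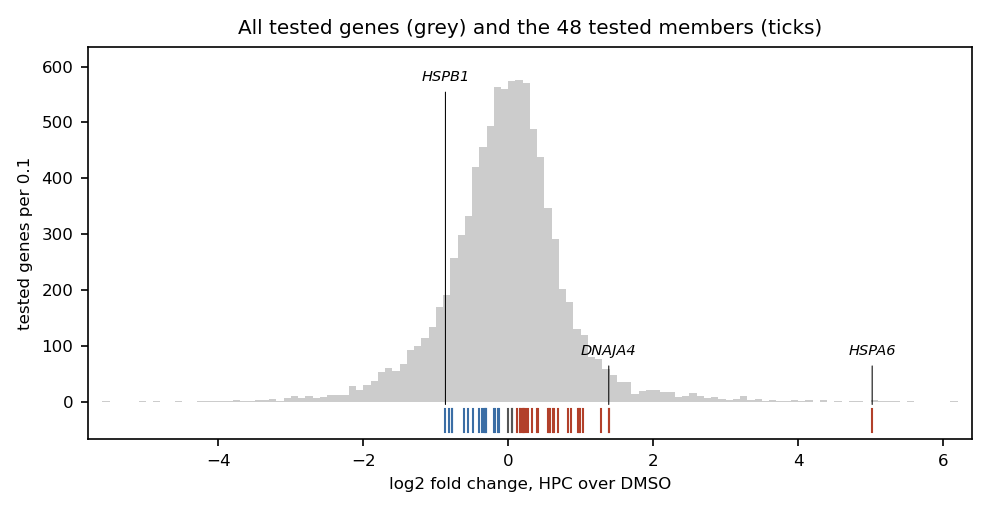
Number of tested genes in each 0.1 step of log2 fold change (grey bars, 9150 genes, HPC over DMSO), with a tick below for each of the 48 tested members, red for higher, blue for lower and grey for not passed. Most ticks lie within the bulk of the grey bars, between -0.87 and 1.39, and HSPA6 lies at 5.02.

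Transcripts of HSPA6 and HSP90AA1 rose and those of HSPA8 and HSP90AB1 fell. For these 4 members, sequences before a transcription start are shown, because they carry the heat shock element letters and yet the directions differ. Each is the 250 bases before a transcription start, read 5′ to 3′ on the gene's own strand, from RefSeq on GRCh38.p14. Capitals mark each match to GAANNTTCNNGAA or to its reverse complement TTCNNGAANNTTC.
HSPA6 (chr1:161524290-161524539, plus strand): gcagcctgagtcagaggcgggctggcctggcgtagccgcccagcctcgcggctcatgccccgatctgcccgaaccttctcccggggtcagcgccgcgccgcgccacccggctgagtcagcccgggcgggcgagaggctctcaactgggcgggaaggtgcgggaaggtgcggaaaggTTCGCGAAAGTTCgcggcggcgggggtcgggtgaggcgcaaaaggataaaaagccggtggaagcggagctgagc
HSP90AA1 (chr14:102087045-102087294, minus strand): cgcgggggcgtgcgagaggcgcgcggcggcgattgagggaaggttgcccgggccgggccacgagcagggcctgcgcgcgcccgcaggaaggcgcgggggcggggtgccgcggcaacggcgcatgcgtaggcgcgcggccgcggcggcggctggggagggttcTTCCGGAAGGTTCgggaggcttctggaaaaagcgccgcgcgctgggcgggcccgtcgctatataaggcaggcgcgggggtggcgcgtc
HSP90AB1 (chr6:44247693-44247942, plus strand): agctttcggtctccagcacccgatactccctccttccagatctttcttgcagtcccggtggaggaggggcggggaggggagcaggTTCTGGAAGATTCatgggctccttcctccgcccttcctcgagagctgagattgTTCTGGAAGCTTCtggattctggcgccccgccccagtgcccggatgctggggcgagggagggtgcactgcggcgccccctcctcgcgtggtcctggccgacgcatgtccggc
HSPA8 (chr11:123062137-123062386, minus strand): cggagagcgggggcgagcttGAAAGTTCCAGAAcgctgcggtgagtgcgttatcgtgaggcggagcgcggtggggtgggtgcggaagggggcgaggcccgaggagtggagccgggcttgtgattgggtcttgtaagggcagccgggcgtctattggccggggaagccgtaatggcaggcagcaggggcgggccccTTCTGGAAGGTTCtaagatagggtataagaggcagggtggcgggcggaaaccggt
HSP90AA1 has 2 windows in the table and HSP90AB1 has 3, and for both the window shown is the only one that held the letters. In both genes that window precedes the most downstream start and lies within the annotated gene. HSP90AB1 spans chr6:44246166-44253888 and HSP90AA1 spans chr14:102080738-102139699. Windows at their earlier starts held no match. The HSPA8 window also lies within its annotated gene (chr11:123057489-123063230). The letters ended 62 bases before the start in HSPA6 and 76 bases before it in HSP90AA1. HSP90AB1 held them at 165 to 153 and at 112 to 100 bases before the start, and HSPA8 at 230 to 218 and at 55 to 43.

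In windows from 250 bases before to 50 bases after the start, on both strands, the motif was in 6 of the 58 members with a window in the table, or 10.3%, and in 166 of all 27305 genes, or 0.608%. The other members with the motif were DNAJB6, 131 to 119 bases before the start, and DNAJA1, 4 to 16 bases after it. By direction, 4 of 26 members that rose and 2 of 15 that fell held it. It was absent from the windows of HSPA1A, HSPA1B, DNAJB1, HSPH1, HSPB1 and BAG3, of which this says only that these exact letters are not in this window. A match is a run of letters and not a measured binding site.

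Among the inducible HSP70 genes, HSPA6 (ENSG00000173110, chr1:161524540-161526910 in GENCODE 29 on GRCh38) was close to silent in DMSO. HSPA6 encodes a strictly stress-inducible HSP70 found in humans and not in mice. It had 10.4, 8.45, 7.12, 6.51 and 7.30 FPKM in HPC libraries 1 to 5, against 0.0457, 0.232, 0.129, 0.225 and 0.142 FPKM in DMSO libraries 1 to 5. Every HPC library was far above every DMSO library, and the spread was wide within both groups. The reads behind these values were 1011 to 1688 per HPC library and 8 to 40 per DMSO library. The log2 fold change was 5.02 with a standard error of 0.23 (limma adjusted p = 9.45e-09), and it ranked 8 among all rises of the 9150 tested genes. Its size depends on the pseudocount and ranged from 2.94 to 5.84 over the settings tried.

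HSPA1A and HSPA1B, neighbours on chromosome 6 (chr6:31815464-31817946 and chr6:31827735-31830255), encode nearly identical inducible HSP70 proteins. HSPA1A had 2.75, 2.56, 2.33, 2.48 and 2.28 FPKM in HPC, against 1.07, 1.22, 1.198, 1.23 and 1.09 FPKM in DMSO. HSPA1B had 2.26, 2.11, 1.88, 2.25 and 1.99 FPKM in HPC, against 1.09, 1.34, 1.13, 1.09 and 1.06 FPKM in DMSO. Neither gene's groups overlapped, and both changes were far smaller than that of HSPA6. The log2 fold changes were 1.03 (SE 0.06, limma adjusted p = 1.25e-09) for HSPA1A and 0.82 (SE 0.07, limma adjusted p = 6.38e-08) for HSPA1B. Of all 150-base stretches of their transcripts, 63.2% of HSPA1A's and 70.0% of HSPA1B's occur in another gene, mostly in each other, so the split of reads between them is uncertain. How reads that match several genes were counted is not given. The level of both genes, their sum and the share of HSPA6 beside them are therefore uncertain too. Their summed FPKM was 4.58 ± 0.34 in HPC and 2.31 ± 0.17 in DMSO (SD, n = 5 each). Per merged exon length, HSPA6 made up 54.6% ± 3.55 of the 3 inducible genes' summed level in HPC and 4.48% ± 1.99 in DMSO (SD, n = 5 each). For HSPA6, 15.2% of such stretches are shared, mainly with HSPA7.

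The constitutive HSP70 moved the other way. HSPA8 (chr11:123057489-123063230), which encodes Hsc70, the housekeeping HSP70 of the cytosol, had 58.4, 56.1, 61.0, 62.2 and 59.5 FPKM in HPC, against 74.0, 73.0, 73.4, 74.5 and 72.8 FPKM in DMSO. All HPC libraries lay below all DMSO libraries, for a log2 fold change of -0.31 (SE 0.03, limma adjusted p = 1.08e-07). HSPA14, which encodes an HSP70 that works at the ribosome, had 5.50, 5.65, 6.08, 6.73 and 5.62 FPKM in HPC, against 11.2, 9.91, 10.1, 10.9 and 10.5 FPKM in DMSO. It fell by 0.82 on the log2 scale (SE 0.05, limma adjusted p = 5.96e-09). For HSPA14, 12.5% of the 150-base stretches also occur in another gene entry of the same name. DNAJC2, which encodes the J protein that pairs with HSPA14 at the ribosome, rose: it had 8.81, 9.66, 8.72, 9.50 and 9.18 FPKM in HPC, against 5.23, 5.16, 4.79, 4.85 and 5.00 FPKM in DMSO. The log2 fold change of DNAJC2 was 0.86 (SE 0.04, limma adjusted p = 7.46e-11). The partners of this complex therefore moved in opposite directions. HSPA12A, a distant relative of HSP70 that is named here outside the naming rule, rose by 0.40 on the log2 scale (limma adjusted p = 3.48e-06).

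The HSP110 genes, whose products are nucleotide exchange factors of HSP70, were 2 higher and 1 that did not pass. Of all tested genes 42.9% were higher and 44.8% lower. Relative to the non-mitochondrial sum 1 HSP110 gene was higher and 2 did not pass, where 32.3% of all tested genes were higher. HSPH1, the stress-inducible HSP110 gene, had 22.3, 22.2, 22.9, 20.6 and 22.0 FPKM in HPC, against 10.6, 10.3, 11.7, 11.4 and 11.2 FPKM in DMSO. The groups were well apart, with a log2 fold change of 0.99 (SE 0.04, limma adjusted p = 3.47e-11). HSPA4, the constitutive one, rose by 0.16 (limma adjusted p = 3.59e-05), but it was at -0.01 relative to the non-mitochondrial sum (limma adjusted p = 0.852) and at -0.01 after quantile normalization (limma adjusted p = 0.858). HSPA4L, known for its part in the testis, gave 0.05 (limma adjusted p = 0.421).

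The cytosolic HSP90 genes moved in opposite directions. HSP90AA1 (chr14:102080738-102139699), the inducible isoform, had 262, 262, 270, 258 and 269 FPKM in HPC, against 224, 208, 207, 207 and 206 FPKM in DMSO. HSP90AB1 (chr6:44246166-44253888), the constitutive isoform, had 212, 209, 210, 205 and 205 FPKM in HPC, against 272, 262, 257, 261 and 257 FPKM in DMSO. Neither pair of groups overlapped. The log2 fold changes were 0.33 (SE 0.03, limma adjusted p = 3.52e-08) and -0.33 (SE 0.02, limma adjusted p = 3.92e-09). The summed deposited FPKM of both genes was 472 ± 6.20 in HPC and 472 ± 13.5 in DMSO (SD, n = 5 each). That equality depends on the scale. The ratio of the sums, HPC over DMSO, was 0.958 per merged exon length and 0.891 relative to the non-mitochondrial sum. Per merged exon length the ratio of HSP90AA1 to HSP90AB1 was 0.863 ± 0.0205 in HPC and 0.546 ± 0.00845 in DMSO (SD, n = 5 each). Relative to the non-mitochondrial sum HSP90AA1 was at 0.16 and HSP90AB1 at -0.50, and after quantile normalization at 0.12 and -0.61. Per merged exon length the beta isoform stayed the more abundant of the 2 in all 10 libraries.

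**Figure D3:**
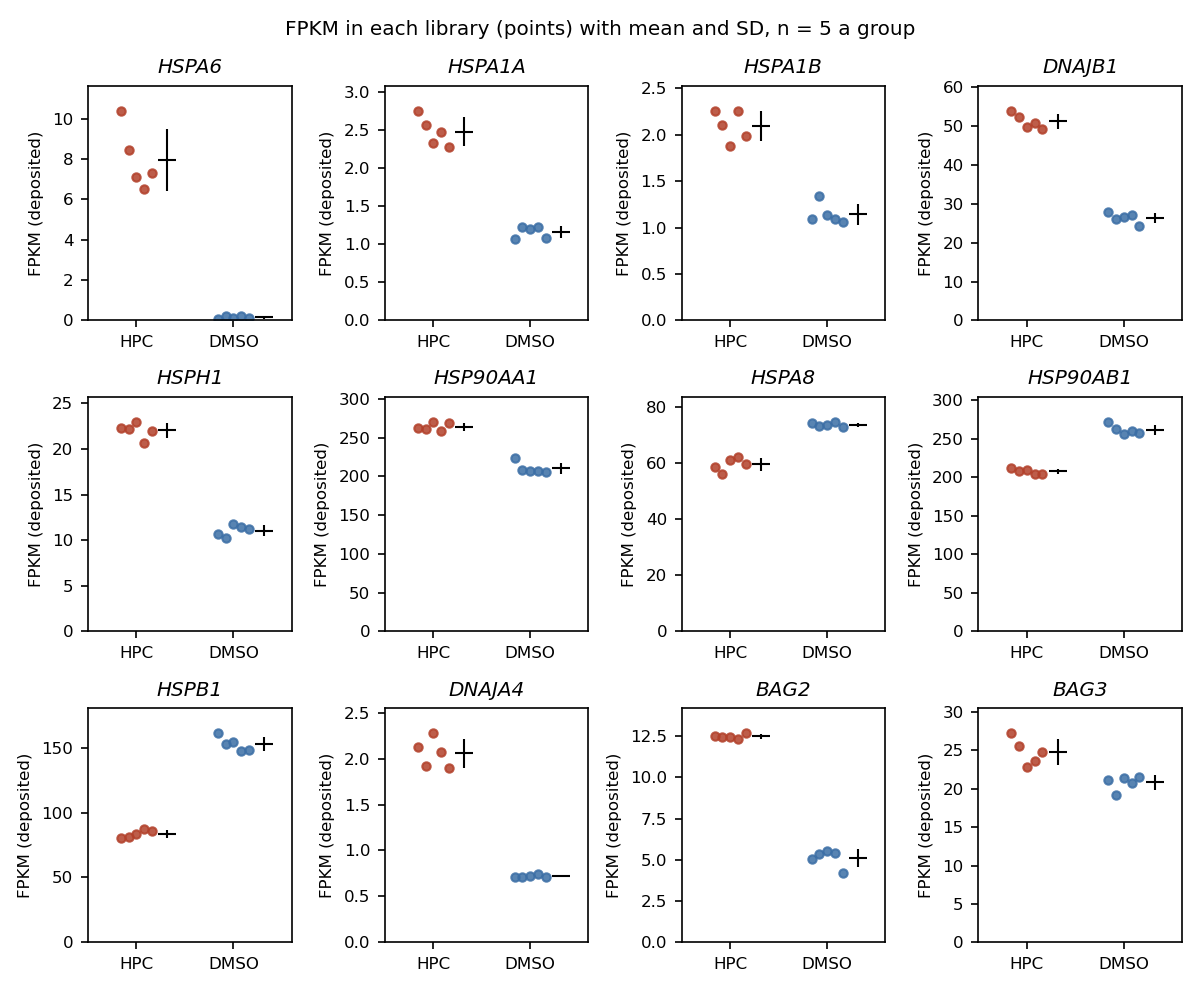
Deposited FPKM in each of the 10 libraries for 12 members, HPC left (red) and DMSO right (blue), with the mean and SD beside the points (n = 5 a group). Every panel starts at 0 and has its own scale. HPC points lie above DMSO points for all genes but HSPA8, HSP90AB1 and HSPB1, where they lie below.

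Of the small heat shock protein genes, which hold unfolding proteins in soluble form, both that were tested fell and 6 were not tested. Of all tested genes 44.8% fell. Relative to the non-mitochondrial sum both tested HSPB genes fell too, where 54.8% of all tested genes did. HSPB1 (chr7:76302544-76304295), which encodes HSP27 and is itself a known HSF1 target, had 80.6, 81.3, 83.3, 87.5 and 85.5 FPKM in HPC, against 161, 152, 154, 148 and 148 FPKM in DMSO. It had the largest fall of all tested members, with a log2 fold change of -0.87 (SE 0.03, limma adjusted p = 8.21e-12). HSPB11, whose product is a subunit of the intraflagellar transport machinery, fell by 0.61 on the log2 scale (limma adjusted p = 1.13e-09). HSPB8, the small heat shock protein that works with BAG3, was at 0 in all DMSO libraries and had 0 to 16 reads in HPC libraries.

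All 4 DNAJA genes, which encode the general HSP70 partners of the class with a zinc-binding region, rose, where 42.9% of all tested genes did. DNAJA1, the most abundant of them, had 102, 97.9, 108, 95.1 and 96.9 FPKM in HPC, against 67.2, 64.1, 69.4, 68.5 and 68.2 FPKM in DMSO (log2 fold change 0.56, SE 0.03, limma adjusted p = 2.23e-09). DNAJA4 had 2.13, 1.92, 2.28, 2.07 and 1.89 FPKM in HPC, against 0.712, 0.715, 0.727, 0.748 and 0.714 FPKM in DMSO (log2 fold change 1.39, SE 0.05, limma adjusted p = 1.81e-11). The groups were apart in both genes. DNAJA3, whose product works in mitochondria, rose by 0.62 (limma adjusted p = 5.29e-10). DNAJA2 rose by 0.19 (limma adjusted p = 6.02e-05), a rise that did not pass relative to the non-mitochondrial sum, where it was 0.02 (limma adjusted p = 0.485). On that scale 3 DNAJA genes rose, where 32.3% of all tested genes did.

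Of 6 tested DNAJB genes 5 rose and 1 fell, where 42.9% and 44.8% of all tested genes did. Relative to the non-mitochondrial sum 3 rose and 1 fell, and DNAJB6 and DNAJB12 did not pass. On that scale 32.3% of all tested genes rose and 54.8% fell. DNAJB1 (chr19:14514770-14529770), which encodes HSP40, the inducible partner of HSP70 in dissolving aggregates, had 53.8, 52.4, 49.8, 50.7 and 49.2 FPKM in HPC, against 27.8, 26.1, 26.5, 27.0 and 24.3 FPKM in DMSO. Its groups did not overlap, for a log2 fold change of 0.96 (SE 0.04, limma adjusted p = 2.3e-11). DNAJB2, whose product carries ubiquitylated clients to the proteasome, rose by 0.63 (limma adjusted p = 3.43e-07) and DNAJB4, a close relative of DNAJB1, by 0.58 (limma adjusted p = 1.1e-08). DNAJB6, whose product suppresses the aggregation of polyglutamine proteins, rose by 0.16 (limma adjusted p = 9.95e-05) but was at -0.00 relative to the non-mitochondrial sum (limma adjusted p = 0.905). DNAJB14, a membrane protein of the endoplasmic reticulum, fell by 0.20 on the log2 scale (limma adjusted p = 0.000435).

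The DNAJC genes, whose products share little but the J domain, divided into 8 that rose, 10 that fell and 1 that did not pass. These counts are near the shares of all tested genes, 42.9% and 44.8%. Relative to the non-mitochondrial sum 5 rose, 10 fell and 4 did not pass, where 32.3% of all tested genes rose and 54.8% fell. DNAJC25 rose most: it had 4.29, 4.30, 4.25, 3.25 and 4.13 FPKM in HPC, against 1.61, 1.46, 1.46, 1.38 and 1.44 FPKM in DMSO (log2 fold change 1.39, SE 0.07, limma adjusted p = 5.36e-10). Its read-through partner DNAJC25-GNG10 had 7.43, 10.4, 10.96, 10.7 and 11.05 FPKM in HPC, against 9.95, 8.49, 10.8, 10.2 and 8.94 FPKM in DMSO, with overlapping groups (log2 fold change 0.05, limma adjusted p = 0.655). Without HPC replicate 1 that value was 0.16 and passed (limma adjusted p = 0.0266). Since 78.4% of the 150-base stretches of DNAJC25-GNG10 occur in other genes, mainly in GNG10, its values are uncertain. DNAJC18 rose by 0.98 (limma adjusted p = 4.09e-10), and its product sits in the endoplasmic reticulum membrane.

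The largest falls of the DNAJC genes were those of DNAJC5, DNAJC4 and DNAJC15. DNAJC5, which encodes the cysteine string protein of secretory vesicles, had 5.84, 6.13, 6.55, 5.66 and 6.28 FPKM in HPC, against 10.6, 10.4, 10.5, 10.4 and 10.6 FPKM in DMSO (log2 fold change -0.78, SE 0.04, limma adjusted p = 1.95e-10). DNAJC4 fell by 0.77 on the log2 scale (limma adjusted p = 9.48e-07). DNAJC15, a J protein of the mitochondrial inner membrane, fell by 0.56 (limma adjusted p = 5.12e-08). DNAJC7, whose product binds both HSP70 and HSP90, fell by 0.37 (limma adjusted p = 6.11e-07). The symbol rule also takes in J proteins outside the cytosol. Grouped by known location after their values were seen, the mitochondrial J protein genes DNAJA3, DNAJC11, DNAJC15, DNAJC19 and DNAJC30 were 1 higher and 4 lower, with a median log2 fold change of -0.33. The 6 genes grouped as J proteins of the endoplasmic reticulum were DNAJB12, DNAJB14, DNAJC1, DNAJC14, DNAJC16 and DNAJC18. Of these 5 were higher and 1 lower, with a median of 0.34. Relative to the non-mitochondrial sum 3 were higher, 1 was lower and 2 did not pass, with a median of 0.185. On that scale the mitochondrial group was 1 higher and 4 lower, with a median of -0.492. The groups may be incomplete, and DNAJC25, which rose by 1.39, was placed in neither. Of all tested genes 42.9% were higher and 44.8% lower on the deposited scale, and 32.3% and 54.8% relative to the non-mitochondrial sum.

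Of the BAG genes 4 rose, 1 fell and 1 did not pass, where 42.9% of all tested genes rose and 44.8% fell. Relative to the non-mitochondrial sum 2 rose, 2 fell and 2 did not pass, where 32.3% of all tested genes rose and 54.8% fell. BAG2, whose product inhibits the ubiquitin ligase CHIP, had 12.5, 12.4, 12.4, 12.3 and 12.7 FPKM in HPC, against 5.05, 5.37, 5.54, 5.44 and 4.23 FPKM in DMSO (log2 fold change 1.27, SE 0.06, limma adjusted p = 2.42e-10). BAG5 rose by 0.55 (limma adjusted p = 6.47e-09). BAG3, a classical HSF1 target whose product directs aggregated proteins to autophagy, had 27.2, 25.6, 22.9, 23.7 and 24.7 FPKM in HPC, against 21.2, 19.2, 21.4, 20.7 and 21.5 FPKM in DMSO. Its groups did not overlap but lay close, at a log2 fold change of 0.25 (SE 0.05, limma adjusted p = 0.000188), and relative to the non-mitochondrial sum the value was 0.08 and did not pass (limma adjusted p = 0.101).

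BAG6, whose product guards newly made membrane proteins, rose by 0.12 (limma adjusted p = 0.00212), with -0.05 relative to the non-mitochondrial sum (limma adjusted p = 0.161). BAG1, the founding member, fell by 0.18 on the log2 scale (limma adjusted p = 0.000232). BAG4 had 6.76, 6.18, 6.45, 7.31 and 6.22 FPKM in HPC, against 6.23, 6.30, 6.74, 6.80 and 6.88 FPKM in DMSO. Its groups overlapped (log2 fold change -0.00, limma adjusted p = 0.959), and relative to the non-mitochondrial sum it fell by 0.17 (limma adjusted p = 0.00561).

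The 20 members that were not tested reached at most 1.03 FPKM in any library. In a fit without the filter on low values 3 of them rose, 5 fell and 12 did not pass, where 31.2% of all 16734 genes rose and 36.2% fell. DNAJC22, named after its values were seen, had 0.169, 0.212, 0.161, 0.214 and 0.278 FPKM in HPC, against 0.873, 0.941, 0.938, 0.804 and 0.924 FPKM in DMSO. Its groups were far apart, and the log2 fold change without the filter was -1.71 (limma adjusted p = 2.98e-08), a larger fall than that of any tested member. HSPA2, the HSP70 of male germ cells, had 0.0931 to 0.129 FPKM in HPC and 0.242 to 0.423 FPKM in DMSO, a log2 fold change of -0.95 without the filter (limma adjusted p = 1.35e-05). HSPA1L, another HSP70 of the testis, had 0.0550 to 0.215 FPKM in HPC and 0.0642 to 0.126 FPKM in DMSO, with overlapping groups.

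Levels of different genes could not be read from the deposited FPKM. The length behind those values equalled the summed length of all annotated transcripts of a gene within 1% for 76.4% of 11435 genes in GENCODE 29, against 3.77% for the merged exon length. A gene with many annotated transcripts is therefore set low: HSPA8, with 24 transcripts, was divided by 29002 bases, while its merged exons span 4849 bases. HSPA6, with 1 transcript, was divided by 2356 bases, and its merged exons span 2371. A gene's length is the same in all libraries, so fold changes between the groups are not touched by it, apart from the weight of the pseudocount and the genes that pass the filter. Per merged exon length 51 members were tested, of which 29 rose and 19 fell, where 41.3% of all genes tested on that scale rose and 45.4% fell.

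With FPKM recomputed per merged exon length, HSP90AB1 was the most abundant member in both groups, at 731 ± 11.6 in HPC and 919 ± 21.3 in DMSO. HSP90AA1 followed at 631 ± 11.9 in HPC and 502 ± 18.2 in DMSO. HSPA8 was the next at 356 ± 14.1 in HPC and 440 ± 4.16 in DMSO, and then HSPB1 at 141 ± 4.86 in HPC and 258 ± 9.25 in DMSO (SD, n = 5 each). These 4 kept their order in both groups, although deposited FPKM put HSP90AA1 above HSP90AB1 in HPC libraries. Below them DNAJB1 stood at 131 ± 4.85 in HPC and 67.2 ± 3.33 in DMSO, with DNAJA1 at 125 ± 6.21 in HPC and 84.8 ± 2.57 in DMSO. In HPC the ranges of DNAJB1 and DNAJA1 overlapped, and HSPB1 and DNAJB1 overlapped as well. In DMSO DNAJB1 was below DNAJA1 in every library. HSPH1 was at 71.6 ± 2.78 in HPC and 35.9 ± 1.95 in DMSO, and HSPA6 at 7.90 ± 1.52 in HPC and 0.154 ± 0.0764 in DMSO.

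All members together held 0.846% ± 0.00851 of the deposited FPKM in HPC and 0.851% ± 0.0186 in DMSO (SD, n = 5 each). Their summed FPKM in HPC was 1.01 times that in DMSO, and 0.977 times per merged exon length. By family the ratio of summed deposited FPKM was 0.906 for HSPA, where HSPA8 dominates the sum, 0.552 for HSPB and 0.973 for DNAJC. It was 1.28 for HSP110, 1.00 for HSP90A (0.958 per merged exon length), 1.41 for DNAJA, 1.63 for DNAJB and 1.31 for BAG.

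**Figure D4:**
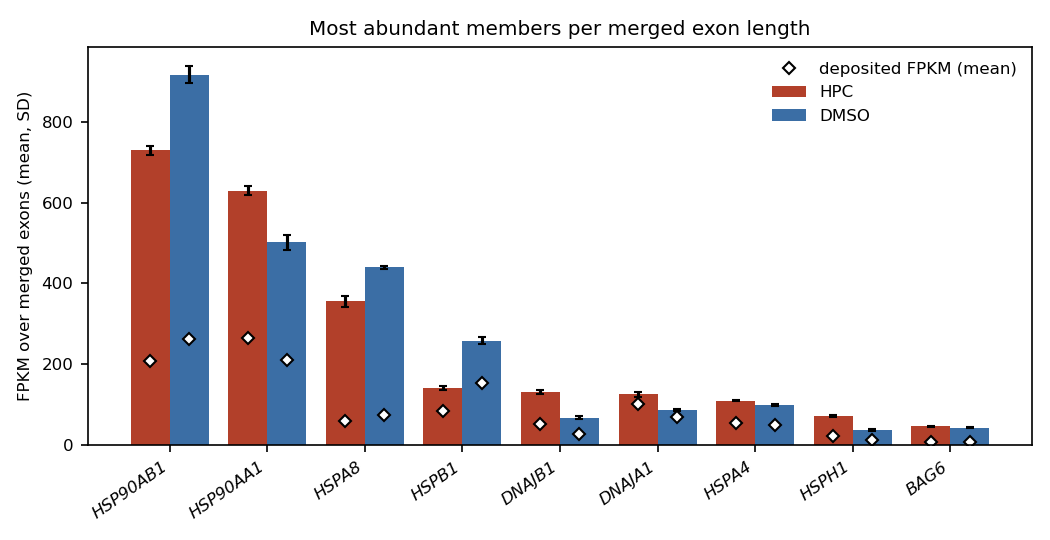
FPKM per merged exon length (bars, mean with SD, n = 5 libraries a group) of the 9 most abundant members in HPC, HPC in red and DMSO in blue, with the mean deposited FPKM as white diamonds. HSP90AB1, HSPA8 and HSPB1 are lower in HPC, while HSP90AA1, DNAJB1, DNAJA1 and HSPH1 are higher, and the diamonds fall below the bars by factors that differ between genes.

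The other genes of the heat shock system, from lists that share members, were as follows. HSF1, the main heat shock factor, had 6.46, 6.54, 6.398, 6.35 and 6.63 FPKM in HPC, against 4.49, 4.46, 4.64, 4.78 and 4.50 FPKM in DMSO, with no overlap (log2 fold change 0.49, limma adjusted p = 1.53e-09). HSF2 gave 0.03 (limma adjusted p = 0.529), and HSBP1, a small protein that binds heat shock factors, fell by 0.28 on the log2 scale (limma adjusted p = 9.73e-08). Of 15 other HSF1 target genes 12 rose and 3 fell, where 42.9% and 44.8% of all tested genes did, with a median log2 fold change of 0.48. Relative to the non-mitochondrial sum 9 rose and 3 fell, where 32.3% and 54.8% of all tested genes did. The largest rise was 2.32 for ZFAND2A, whose product works at the proteasome, and the largest fall was -0.43 for HSPE1, the mitochondrial cochaperonin.

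Of 20 tested co-chaperones of HSP70 and HSP90 outside the members 12 rose, 6 fell and 2 did not pass, and relative to the non-mitochondrial sum 9 rose, 8 fell and 3 did not pass. The shares of all tested genes that rose and fell were 42.9% and 44.8% on the deposited scale and 32.3% and 54.8% relative to that sum. Among them CHORDC1, an HSP90 co-chaperone, rose by 1.11 (limma adjusted p = 2.54e-11), and PPP5C, the phosphatase that acts with HSP90, fell by 0.66 on the log2 scale (limma adjusted p = 1.82e-08). The TRiC chaperonin, the ring that folds actin and tubulin, had 4 of 8 tested subunits higher, 2 lower and 2 that did not pass, between -0.29 for CCT3 and 0.34 for CCT2. Relative to the non-mitochondrial sum, where 32.3% of all tested genes rose and 54.8% fell, 1 TRiC subunit rose and 7 fell. Prefoldin, which passes clients to TRiC, had 3 of 6 subunits higher, 1 lower and 2 that did not pass, from a log2 fold change of 1.199 for PFDN2 to -0.43 for PFDN5. Of 12 chaperone genes of the endoplasmic reticulum and mitochondria, 10 rose and 2 fell with a median of 1.38, where 42.9% and 44.8% of all tested genes rose and fell, and DNAJB9 rose most, by 3.10. Their median log2 fold change stood beside 0.20 for the members.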

How the data were processed

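Libraries were poly(A) RNA sequenced as paired-end reads, per the labels' protocols. Named in the submitters' processing notes are STAR 2.7.7a, fastp 0.23.2, the build GRCh38.p13 and edgeR (no version), without their roles. Which counter, strand setting and annotation were used is not given in the sources used here. FPKM, fragments scaled to gene length and library size, is the unit of the 1 table that the authors deposited.

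For all 15208 genes above 0 in at least 3 libraries the values were whole multiples of 1 read, within 0.0002 of a read, which gives the reads quoted. The number of recovered reads limits the precision of low genes, and without molecular identifiers reads are not independent molecules. Genes that reached 1 FPKM in 5 or more libraries were compared with limma 3.58.1 (log2(FPKM + 0.1), two-sided, empirical Bayes with trend and robust steps, Benjamini-Hochberg at 0.05) in R 4.3.3, and the procedure was tested on simulated data. The fold change is on the log2(FPKM + 0.1) scale.

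Lengths, coordinates and shared 150-base stretches came from GENCODE 29 on GRCh38, whose release may differ from the one behind the table. Merged exon lengths were used for levels between genes, an alternative chosen after seeing the data, since the deposited lengths were found to differ from them. Merged exons include those of rare transcripts, so these levels are approximate. Promoters came from RefSeq on GRCh38.p14, matched by symbol for 58 members.

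The members and lists were chosen with earlier results of these data known, so no list was tested. Named genes were 24 fixed members, the 3 largest called rises and falls of each family, every member that did not pass, HSF1, HSF2 and the largest rise and fall of each other list. Other members are given by count, apart from HSPA12A, DNAJC22 and those listed by location or among the lost rises. The listed genes HSF5, HSFY1, AHSA2P, CD3E, INS and PRSS1 were not analysed here. Alternatives changed the pseudocount, filter, scaling, variance model, weights, reads in place of FPKM (voom), replicate block, threshold and libraries. Computations also used matplotlib 3.10.9, SciPy 1.17.1, pandas 2.3.3 and NumPy 2.4.6 in Python 3.11.15.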

Additional observations from a re-analysis of the deposited data

Results flagged for a closer look

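Of 75 groups of 5 libraries checked, 4 held a library whose gap to the nearest other, divided by the range of the group, was above 0.71, and chance flags about 1 in 20 groups. DNAJC25 had 3.25 FPKM in HPC replicate 4, against 4.13 to 4.30 in the other HPC libraries. DNAJC25-GNG10 had 7.43 FPKM in HPC replicate 1, against 10.4 or more in the other HPC libraries, and without it the gene rose by 0.16 (limma adjusted p = 0.0266). HSP90AA1 had 224 FPKM in DMSO replicate 1, against 206 to 208 in the other DMSO libraries, still below every HPC library. HSPA1B had 1.34 FPKM in DMSO replicate 2, against 1.06 to 1.13 in the other DMSO libraries.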

How the results depend on the processing

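Of 47 named genes with a fit, 38 kept their direction and their side of the threshold under all alternatives that gave them a value, HSPA6, HSPA1A, HSPA1B, DNAJB1, HSPH1, HSPB1, HSPA8 and both HSP90 genes among them. Of the 38, 13 had no value with the filter of at least 5 FPKM, HSPA1A and HSPA1B included. Most changes came with the scaling to the total of the nuclear genes (the non-mitochondrial sum). There BAG3 was at 0.084, DNAJA2 at 0.024 and BAG4 at -0.17, and the sign turned for BAG6 (-0.046), DNAJB6 (-0.0038), DNAJC25-GNG10 (-0.11), HSPA4 (-0.0053), HSPA4L (-0.11) and HSF2 (-0.14). HSPA4 was at -0.0059 with quantile normalization and BAG4 at 0.030 with equal medians. Without 1 library each, BAG4 ranged from -0.040 to 0.019 and DNAJC25-GNG10 from 0.01 to 0.16.

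The members that rose numbered 28 to 29 and those that fell 17 without 1 library each. With a filter of at least 5 FPKM, which leaves 27 members, 14 rose and 11 fell. Shares of all tested genes are given above for the deposited scale, the non-mitochondrial sum, merged exon length and the fit without a filter. Member and list counts under the other alternatives have no such share beside them and cannot be set against it. The members' median log2 fold change was 0.18 to 0.21 without 1 library each, 0.16 with a pseudocount of 1, 0.051 with no filter, 0.12 with at least 5 FPKM, 0.17 with TPM rescaling, 0.15 with quantile normalization, 0.031 with the non-mitochondrial sum and 0.23 with equal medians.

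Same-numbered HPC and DMSO libraries had correlations of their deviations between -0.06 and 0.20, and 2 of 5 HPC libraries correlated best with the DMSO library of their number. The labels do not say whether the numbers pair the samples, and these few correlations cannot settle it. With the replicate block 28 members rose and 17 fell, with a median of 0.20, and with the block and TPM rescaling the median was 0.17.

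The summed FPKM of all members in HPC over DMSO was 1.01 to 1.02 without 1 library each, 0.994 with TPM rescaling, 0.903 with the non-mitochondrial sum and 0.977 per merged exon length. For HSP90A it was 0.996 to 1.01, 0.981, 0.891 and 0.958 in the same order. With the non-mitochondrial sum it was 0.806 for HSPA, 1.14 for HSP110, 0.491 for HSPB, 1.252 for DNAJA, 1.45 for DNAJB, 0.867 for DNAJC and 1.17 for BAG. Per merged exon length it was 0.829 for HSPA, 1.35 for HSP110 and 1.21 for BAG.

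In the other lists, heat shock factors and HSBP1 had 2 lower with no filter and 2 with the non-mitochondrial sum. TRiC had 2 higher with TPM rescaling, with and without the block, 1 higher and 5 lower with quantile normalization and 1 higher and 7 lower with the non-mitochondrial sum, where prefoldin had 3 lower. Co-chaperones had 3 lower with at least 5 FPKM. Where no value above shows it, the cause was not tested. Members under 1 FPKM rest on few reads, as HSPA6 does in DMSO.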
